A study of Mus musculus with 6 samples.

Results

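The lysozyme genes Lyz2 and Lyz1 and 7 genes of macrophage identity, Csf1r, Adgre1, Cd68, Mertk, Cx3cr1, Lgals3 and Tyrobp, were followed in bone marrow-derived macrophages (BMDMs) with and without a myeloid deletion in the hnRNPD gene. The genes were chosen by symbol, and all 9 were found among the 55254 gene symbols of the count table, of which 18430 had a read in at least 1 library. The 9 genes have 30 transcripts in that table and 23 of them had a count. A gene stands here for the transcript of it that had the most reads on average. The control group held 3 libraries from C57BL/6J mice of genotype hnRNPDfl/fl, and the M-Δx3,4 group held 3 libraries from C57BL/6J mice of genotype LysCre+hnRNPDfl/fl. All 6 cultures were grown for 10 days in medium conditioned by L929 cells, a source of the growth factor CSF1, and then received 100 ng/ml of lipopolysaccharide (LPS) for 4 hrs, so no library shows unstimulated cells. Both groups carry the loxP sites around exons 3 and 4 of hnRNPD, the gene of the AU-rich element binding protein AUF1, and LysMCre was present in the M-Δx3,4 group alone.

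Lysozyme breaks the peptidoglycan of bacterial walls and is among the most abundant products of mature macrophages. In LysMCre mice the Cre recombinase was placed at the start codon of Lyz2, which disrupts that copy of the gene, so the lysozyme M locus is itself part of the genetic design. The labels do not give the number of Cre alleles, and the deletion in hnRNPD and the Cre allele at Lyz2 cannot be told apart as the setting of any difference between these groups. The identity genes cover growth factor dependence (Csf1r), surface and endosomal antigens (Adgre1, Cd68), the engulfment of dead cells (Mertk), the fractalkine receptor of monocytes and resident macrophages (Cx3cr1), a glycan-binding protein (Lgals3) and the signalling adaptor of many myeloid receptors (Tyrobp).

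The summed counts per library ran from 5852374 to 9008878, and counts were divided by median-of-ratios factors to give the normalized counts used below. Hnrnpd, the targeted gene, ranged from 69.6 to 177.8 normalized counts in control and from 12.6 to 52.8 in M-Δx3,4 for its transcript ENSMUST00000072750. Control replicate 3 stood apart, with a Pearson r of 0.764 to 0.895 to the other 5 libraries against 0.904 to 0.971 among those (log2 values of 4723 genes). It was the highest of the 6 libraries for 5 of the 9 genes (Lyz2, Csf1r, Cd68, Lgals3 and Tyrobp) and the lowest for Mertk, while over the 11873 genes tested it was the highest in 25.3% and the lowest in 28.7%. The log2 fold changes of the 9 genes are therefore also given without it. The labels do not say whether the cultures came from separate mice, so the tests measure the spread between these samples, which may be technical.

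Lyz2 and Lyz1 are tandem neighbours on the minus strand of chromosome 10 in mm10, 5475 bases apart. The transcript of Lyz2 (ENSMUST00000092163) runs over chr10:117277331-117282321 and that of Lyz1 (ENSMUST00000092162) over chr10:117287797-117292868. Their proteins have 148 residues each and differ at 12, and their coding sequences were identical at 95.1% of the 447 bases. Their 3′ UTRs, in which the reads were counted, were identical at 95.6% of the aligned bases. The promoter windows of the 2 genes are printed because both genes lay lower in every M-Δx3,4 library and because the windows reach just past the start codon at which LysMCre was placed. Both are from RefSeq (GRCm38.p6, 250 bases before to 50 after the annotated start, minus strand, 5′ to 3′), and capitals mark the bases that do not match the other gene in a global alignment.
Lyz2 promoter, chr10:117282223-117282522: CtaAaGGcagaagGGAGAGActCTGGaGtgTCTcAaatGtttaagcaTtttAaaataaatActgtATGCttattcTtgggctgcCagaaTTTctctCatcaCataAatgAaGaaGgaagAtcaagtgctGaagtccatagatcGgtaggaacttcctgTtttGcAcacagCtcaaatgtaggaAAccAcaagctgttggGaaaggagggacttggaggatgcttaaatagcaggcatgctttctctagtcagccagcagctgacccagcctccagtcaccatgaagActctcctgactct
Lyz1 promoter, chr10:117292819-117293118: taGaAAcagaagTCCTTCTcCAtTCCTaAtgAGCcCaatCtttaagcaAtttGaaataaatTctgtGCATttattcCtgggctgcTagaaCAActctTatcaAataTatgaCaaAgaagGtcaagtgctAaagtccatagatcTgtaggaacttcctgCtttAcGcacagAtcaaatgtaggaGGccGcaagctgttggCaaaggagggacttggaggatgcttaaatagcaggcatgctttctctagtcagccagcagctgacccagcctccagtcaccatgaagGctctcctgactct
The windows matched at 82.5% of the aligned columns, and the last 100 columns, with the TATA-like stretch and the start codon atg, differed at 1 base. That base lies in the coding sequence, as the first 30 coding bases show, with the difference in a capital.
Lyz2 coding start: atgaagActctcctgactctgggactcctc
Lyz1 coding start: atgaagGctctcctgactctgggactcctc
Both windows hold the letters acttcct, the reverse complement of AGGAAGT, a core that ETS factors such as PU.1 can bind. AGGAAGT was found on either strand in 2 of the 6 members with a RefSeq window (Lyz2, Lyz1, Cd68, Mertk, Cx3cr1 and Lgals3), and in 9.35% of the 32851 windows of all genes. The motif was chosen after the lysozyme sequences had been read, and a match is a description of the letters alone.

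Lyz2, which encodes the lysozyme of macrophages and neutrophils, was counted over chr10:117277082-117278120, which is the 3′ UTR and the 249 bases that follow it. The control libraries had 1714, 1750 and 1897 reads there, that is 1992, 1788 and 2201 normalized counts. The M-Δx3,4 libraries had 1372, 908 and 1267 reads, or 1342, 882 and 968 normalized counts. All M-Δx3,4 libraries were under all control libraries, with M-Δx3,4 replicate 1 the closest to them. The means were 1994 ± 206 (SD, n = 3) and 1064 ± 245 (SD, n = 3), so that M-Δx3,4 BMDMs held 53.4% of the control level. This is a log2 fold change of -0.91 with a standard error of 0.30, with an unadjusted p = 0.0089 and an adjusted p of 0.984 in edgeR's quasi-likelihood test. The exact permutation test gave p = 0.1 (two-sided), the smallest that 3 libraries against 3 allow. The fold change stayed short of the minimum of 1 on the log2 scale that was required, together with an unadjusted p under 0.05, to call a gene. It passed that minimum without M-Δx3,4 replicate 1 (-1.11), and was -0.82 without control replicate 3.

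Lyz1, known as the lysozyme of the Paneth cells of the gut and weakly read in macrophages, was counted over chr10:117287548-117288582. The control libraries had 253, 141 and 237 reads (294, 144 and 275 normalized counts), and the M-Δx3,4 libraries had 139, 84 and 147 reads (136, 81.6 and 112 normalized counts). The groups did not overlap, although control replicate 2 lay close above the highest M-Δx3,4 library. Lyz1 fell from 238 ± 81.6 to 110 ± 27.3 normalized counts (SD, n = 3 each), a log2 fold change of -1.11 (standard error 0.38). With an unadjusted p = 0.0097 in edgeR's quasi-likelihood test it passed both thresholds, while its adjusted p was 0.984 and the exact permutation test gave p = 0.1. Lyz1 was the 1 gene of the 9 that was called, beside 3.07% of the 11873 genes tested in either direction and 1.96% lower in M-Δx3,4. The call was lost in 3 of the 6 fits that each left out 1 library, with log2 fold changes of -0.93 without control replicate 1, -0.98 without control replicate 3 and -0.94 without M-Δx3,4 replicate 2.

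**Figure D1:**
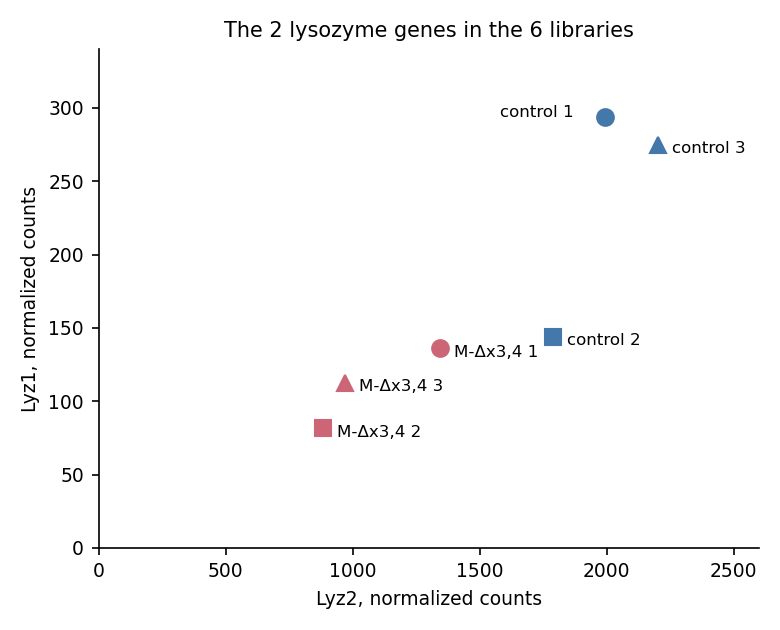
Normalized counts of Lyz2 (horizontal axis) against those of Lyz1 (vertical axis) in the 6 libraries, 1 point a library, both axes from 0. The 3 M-Δx3,4 libraries lie at 882 to 1342 for Lyz2 and 81.6 to 136 for Lyz1, under the control libraries on both axes, and control 2 is close to M-Δx3,4 1 for Lyz1 only.

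The balance between the 2 lysozymes did not separate the groups. Lyz2 made up 87.1%, 92.5% and 88.9% of the reads of the pair in the control libraries, with 95% Wilson intervals from 85.6% to 93.6% over the 3. In the M-Δx3,4 libraries the share was 90.8%, 91.5% and 89.6%, with intervals from 87.9% to 93.1%. These intervals cover counting error only. The mean share was 89.5% ± 2.76 in control and 90.6% ± 0.97 in M-Δx3,4 BMDMs (SD, n = 3 each), 1.1 percentage points apart (exact permutation test, two-sided, p = 0.6). The share uses no library factor. Where a read is long enough to reach a difference the 2 genes can in principle be told apart. Of the 50-base windows of the Lyz1 3′ UTR 12.6% occur without a mismatch in the Lyz2 transcript, of the 100-base windows 0.728%. The longest shared stretch has 104 bases. These windows count exact matches over the whole 3′ UTR. Where in it the reads lay, and how mismatches were treated in the alignment, was not examined. How reads that match both genes were counted is not given in the sources used here, so the values of the 2 genes are not independent measurements.

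Lyz2 took a smaller part of the whole group in M-Δx3,4 BMDMs, which rests on its lower level and is not a separate result. It held 32.2%, 31.8% and 28.2% of the summed normalized counts of the 9 genes in control libraries but 22.7%, 21.3% and 20.5% in M-Δx3,4 libraries, with no overlap (exact permutation test, two-sided, p = 0.1). The sum itself was 6182, 5620 and 7802 in control and 5925, 4139 and 4724 in M-Δx3,4, so that M-Δx3,4 replicate 1 lay above control replicate 2 (exact permutation test, two-sided, p = 0.2). Leaving out control replicate 3 brought the log2 ratio of the mean sums from -0.41 to -0.26. Without Lyz2 it was -0.23 (exact permutation test, two-sided, p = 0.4). The sum of the 9 genes rests mainly on Lyz2, Adgre1 and Tyrobp, and the sum without Lyz2 on Adgre1 and Tyrobp. In these last 2 the counts of several regions were added up.

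Lyz2 and Lyz1 were the 2 genes of the 9 with p under 0.05 before adjustment, and after adjustment 0 of the 9 remained under it in edgeR. Of all 32475 transcripts tested, 1340 were under 0.05 before adjustment, and after it 0 in edgeR, 0 in limma-voom and 4 in DESeq2. Over the alternatives the adjusted p ranged from 0.199 to 0.9999 for Lyz2 and from 0.269 to 0.9999 for Lyz1. For 4 of the 9 genes (Lyz2, Lyz1, Lgals3 and Tyrobp) the M-Δx3,4 libraries were all under the control libraries, while 8.44% of all genes tested did not overlap in either direction and 4.25% lay lower in M-Δx3,4. For Tyrobp this held for the summed regions of ENSMUST00000208125, whereas the libraries of its protein-coding transcript overlapped. The direction was lower for 7 of the genes and higher for Adgre1 and Mertk. The median log2 fold change of the 9 was -0.45, beside -0.006 over all genes tested. It went to -0.20 without control replicate 3 and to -0.68 without control replicate 1, beside 0.008 and 0.055 over all genes.

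**Figure D2:**
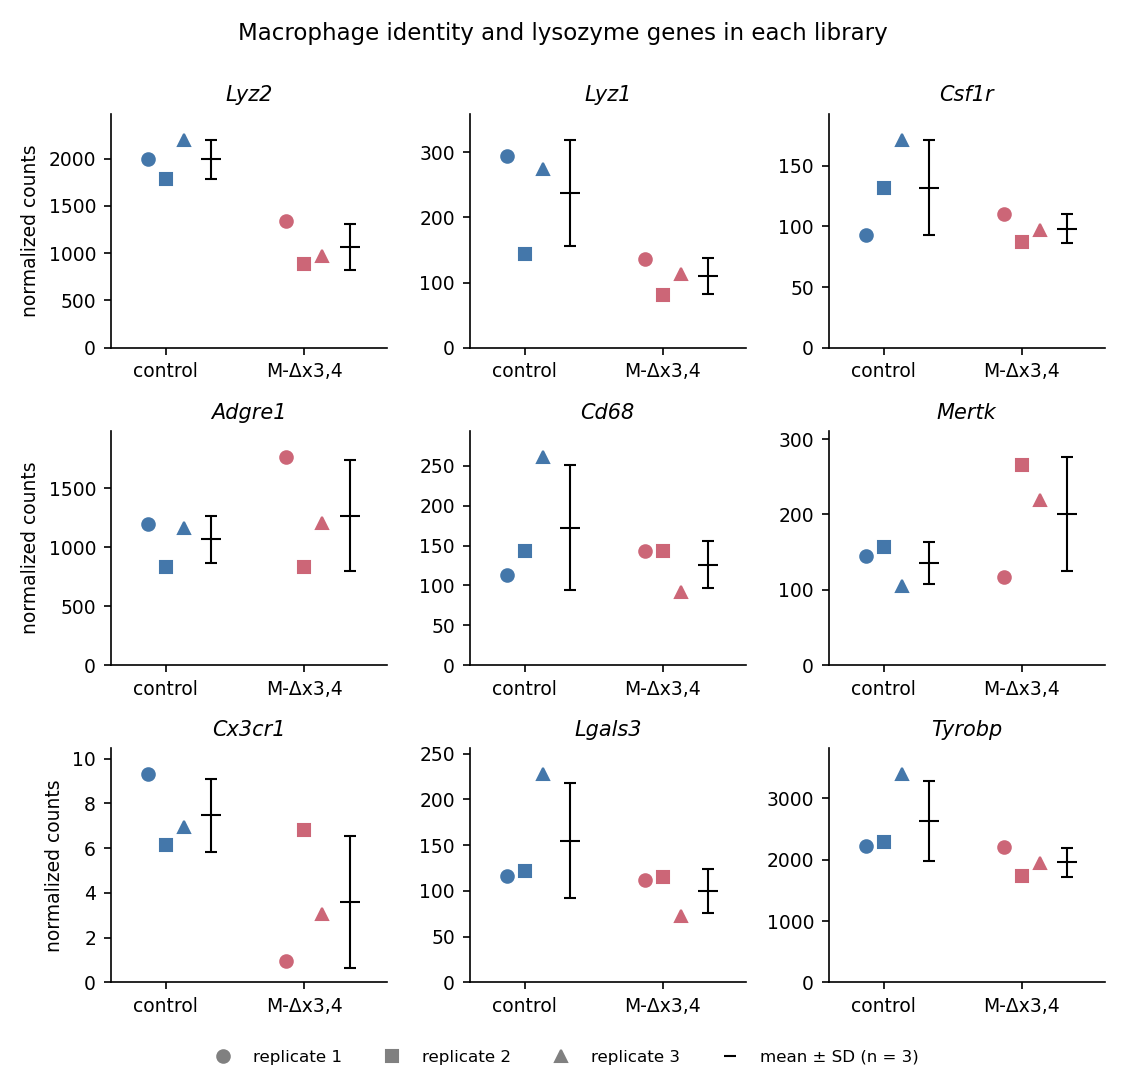
Normalized counts (vertical axes, from 0, scaled per gene) of the 9 genes in the 3 control (blue) and 3 M-Δx3,4 (red) libraries, with the replicate given by the symbol and the mean ± SD (n = 3) in black. Lyz2 and Lyz1 were lower in every M-Δx3,4 library, and the control libraries of Csf1r, Cd68, Lgals3 and Tyrobp reach above the others through control replicate 3 (triangle).

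On the authors' TPM scale, which divides by the length of the counted region, Tyrobp was the highest of the 9 genes in control BMDMs (346 ± 72.3 TPM, SD, n = 3), above Lyz2 (138 ± 15.6) and Adgre1 (137 ± 30.7), whose control libraries overlapped. Cd68 (49.3 ± 20.2), the pair of Lyz1 (16.7 ± 6.30) and Lgals3 (15.2 ± 5.52), the pair of Mertk (6.64 ± 1.52) and Csf1r (4.90 ± 1.21), and Cx3cr1 (0.191 ± 0.064) followed. Neighbours within a pair overlapped in the control libraries and the steps between them did not. The place of Adgre1 beside Lyz2 depends on the transcript chosen. ENSMUST00000086763 of Adgre1, with 1 region, had 90.2 ± 20.1 TPM in control (68.5 to 108), under the 120 to 148 of Lyz2. The order from Cd68 to Csf1r also depends on the transcript chosen and its counted length, 249 bases for Cd68 and 1918 for Csf1r. In control BMDMs ENSMUST00000140221 of Mertk had 34.1 TPM, ENSMUST00000025523 of Csf1r 10.3 and ENSMUST00000018918 of Cd68 26.5. By mean normalized counts the control levels were 238 for Lyz1, 172 for Cd68, 155 for Lgals3, 136 for Mertk and 132 for Csf1r. In M-Δx3,4 BMDMs the mean TPM of Lyz2 was 75.9 ± 19.7, under that of Adgre1 at 167 ± 66.7 (114 ± 46.6 for ENSMUST00000086763).

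Csf1r encodes the receptor of CSF1, on which BMDMs depend for survival and growth. Its transcript ENSMUST00000115268 on the plus strand of chromosome 18 had 93.0, 131.8 and 171.7 normalized counts in control and 110.5, 87.4 and 97.1 in M-Δx3,4 libraries. The groups overlapped through control replicate 1, the lowest of its group. On the log2 scale the difference was -0.43 with a standard error of 0.36 (adjusted p = 0.984 in edgeR's quasi-likelihood test) and went to -0.18 without control replicate 3. The shorter transcript ENSMUST00000025523, inside the same region, gave -0.41. Its counted region overlaps exons of Hmgxb3 on the other strand, and whether the counting used the strand is not given in the sources used here.

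Adgre1 encodes F4/80, the classical surface antigen of mouse macrophages. Its transcript ENSMUST00000004850 is counted over chr17:57483121-57483167 and chr17:57483255-57483772 and had 1195, 835 and 1167 normalized counts in control and 1766, 831 and 1207 in M-Δx3,4 libraries. M-Δx3,4 replicate 1 was the highest and replicate 2 the lowest of all 6, so the groups overlapped over their whole range. The mean difference came to 0.25 on the log2 scale, standard error 0.34 (adjusted p = 0.984 in edgeR's quasi-likelihood test), was 0.33 without control replicate 3, and turned sign without M-Δx3,4 replicate 1 (-0.07). The other transcript, ENSMUST00000086763, has 1 region that contains both. Against it, the sum of the 2 regions came to 124 to 131 reads per 100, and how reads shared by these regions were counted is not given in the sources used here. Its log2 fold change was 0.30. The first region, of 47 bases, held 43.4, 39.9 and 49.5 reads per 100 of the second in control and 33.7, 36.3 and 43.9 in M-Δx3,4 libraries (exact permutation test, two-sided, p = 0.3).

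Cd68 encodes macrosialin, a glycoprotein of late endosomes and lysosomes. The transcript with the highest mean count, ENSMUST00000108654, has no annotated 3′ UTR and is counted over the 249 bases of chr11:69664122-69664370. It had 112.7, 143.0 and 261.0 normalized counts in control and 142.8, 143.7 and 91.7 in M-Δx3,4 libraries. Control replicate 3 lay far above the other 5 libraries, which overlapped. The log2 fold change of -0.45 with a standard error of 0.39 (adjusted p = 0.984 in edgeR's quasi-likelihood test) went to -0.01 without control replicate 3. The longer region of ENSMUST00000018918, chr11:69663964-69664370, contains the first yet held fewer reads (86, 125 and 196 in control against 97, 140 and 225), so a read on the shared bases was not always counted for both. Its log2 fold change was -0.46.

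Mertk encodes the receptor tyrosine kinase by which macrophages bind and engulf apoptotic cells. Its transcript ENSMUST00000014505 (chr2:128801668-128803143) had 145.3, 157.3 and 104.4 normalized counts in control and 117.4, 265.1 and 219.3 in M-Δx3,4 libraries. Replicates 2 and 3 of M-Δx3,4 lay above every control library and replicate 1 lay among them. The log2 fold change was 0.56 with a standard error of 0.37 (unadjusted p = 0.153 in edgeR's quasi-likelihood test, exact permutation p = 0.3), was 0.42 without control replicate 3, and ran from 0.31 to 0.83 with 1 library left out.

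Cx3cr1, the receptor of fractalkine, was close to the detection limit. It had 8, 6 and 6 reads in control and 1, 7 and 4 in M-Δx3,4 libraries over chr9:120048434-120051269 (ENSMUST00000064165). Taking 3 reads as the floor, M-Δx3,4 replicate 1 was under it. The log2 fold change of -1.03 had a standard error of 0.86 (-1.06 without control replicate 3) and the groups overlapped, so a difference was not detectable at this depth.

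Lgals3 encodes galectin-3, the Mac-2 antigen, which binds galactosides on the cell surface and on damaged phagosomes. Its transcript ENSMUST00000142734 (chr14:47385681-47386409) had 116.2, 121.6 and 227.4 normalized counts in control and 111.5, 115.6 and 72.6 in M-Δx3,4 libraries. The groups did not overlap, but the gap was under 1 normalized count. The log2 fold change was -0.64 with a standard error of 0.38 (unadjusted p = 0.119 in edgeR's quasi-likelihood test) and -0.24 without control replicate 3. ENSMUST00000150290 had identical counts and ENSMUST00000146468, which ends earlier, gave -0.63.

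Tyrobp encodes DAP12, the adaptor that carries the signals of receptors such as TREM2 to the kinase SYK. Its transcript with the highest mean count, ENSMUST00000208125, is annotated as a target of nonsense-mediated decay and is counted over 3 regions of 11, 44 and 491 bases on chromosome 7. It had 2225, 2294 and 3388 normalized counts in control and 2198, 1726 and 1952 in M-Δx3,4 libraries, without overlap but with M-Δx3,4 replicate 1 just under control replicate 1. The log2 fold change was -0.43 with a standard error of 0.30 (unadjusted p = 0.173 in edgeR's quasi-likelihood test) and -0.20 without control replicate 3. The protein-coding transcript ENSMUST00000032800 (chr7:30417410-30417826), which lies within the last of these regions, had 1224, 1543 and 2080 normalized counts in control and 1418, 1290 and 1268 in M-Δx3,4 libraries. These overlapped, and the log2 fold change was -0.29. The region overlaps exons of Hcst on the other strand, and whether the counting used the strand is not given in the sources used here. Of the 3 summed regions, the middle one of 44 bases was set against the last. It held 72.9, 43.6 and 53.8 reads per 100 of the last in control libraries. In M-Δx3,4 libraries it held 48.1, 29.6 and 47.2 (exact permutation test, two-sided, p = 0.3).

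**Figure D3:**
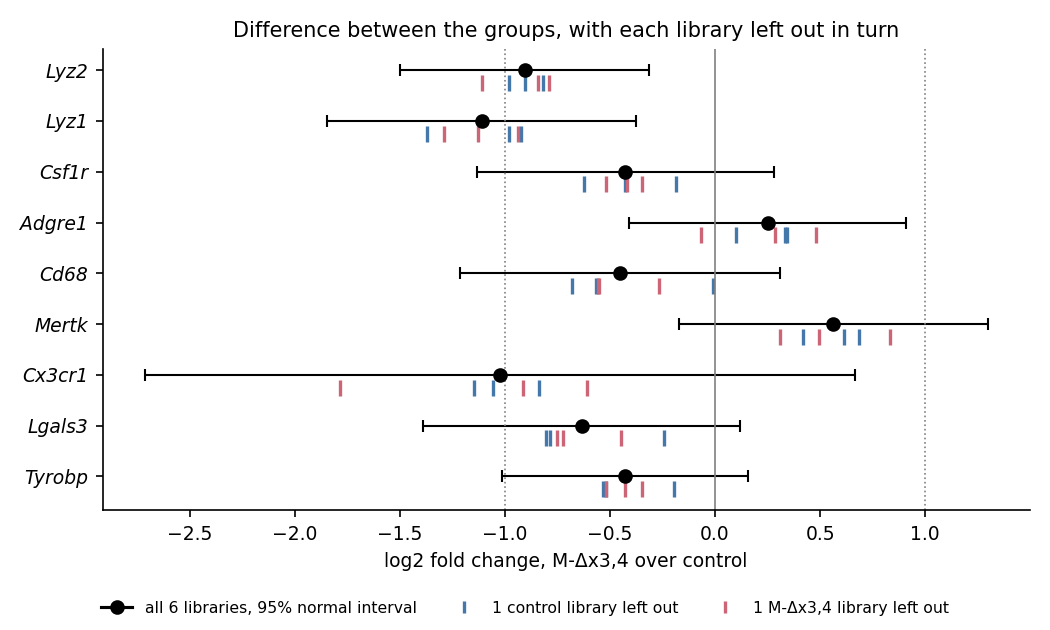
Log2 fold change of M-Δx3,4 over control (horizontal axis) for the 9 genes, as black points with 95% normal intervals from the standard errors of edgeR, and below each the values with 1 control (blue) or 1 M-Δx3,4 (red) library left out. The bars of Lyz2 and Lyz1 end at -0.31 and -0.38 while those of the other 7 genes cross 0, the dotted lines mark -1 and 1, and one tick of Cd68 lies at -0.01.

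AUF1 binds AU-rich elements, of which ATTTA is the core pentamer in DNA letters. The annotated 3′ UTRs of Lyz2 (790 bases), Lyz1 (786), Cd68 (158) and Tyrobp (168, in ENSMUST00000032800) held no ATTTA. Csf1r had 3 in 1669 bases, Mertk 2 in 1227, and Adgre1, Cx3cr1 and Lgals3 had 1 each. Within the last 300 bases of the transcript, ATTTA was found in Adgre1 and Mertk, and in 36.7% of 11436 transcripts tested. The nonamer TTATTTATT was in none of the 9 3′ UTRs, and in 1.61% of the last 300 bases of those transcripts. Only the strand of the RNA was searched, and the absence of these letters says nothing about binding elsewhere.

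Other genes of the same pathways were taken from 9 lists of 116 genes, of which 93 were tested. Of these 5 were called, 1 higher and 4 lower, beside 3.07% of all genes tested, and their median log2 fold change was -0.07. Of the colony stimulating factor receptors and signalling genes 0 of 9 were called (edgeR, 0 at an unadjusted p under 0.05), and Csf3r, the receptor of G-CSF, was the highest of them with a log2 fold change of -0.13, which lay between -0.36 and 0.17 with 1 library left out. Among the partners and kinases of TYROBP 1 of 8 was called. This was Hcst, the adaptor DAP10, with 66.2, 178.8 and 263.4 normalized counts in control and 108.6, 85.5 and 57.3 in M-Δx3,4 libraries. The groups overlapped and the log2 fold change was -1.02. Exons of Hcst overlap the last counted region of Tyrobp on the other strand. Whether the counting used the strand is not given in the sources used here, so the counts of Hcst may not be separate from those of Tyrobp. The call of Hcst was lost without control replicate 2 (-0.98), control replicate 3 (-0.54), M-Δx3,4 replicate 2 (-1.03) or M-Δx3,4 replicate 3 (-0.80). Fcer1g, another signalling adaptor, had the highest level and a log2 fold change of -0.54, which was -0.20 without control replicate 3.

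Among the genes of the MERTK family and of the engulfment of dead cells 1 of 15 was called, and it was Axl, the sister kinase of MERTK. Axl fell from 61.6, 69.5 and 89.3 normalized counts in control to 44, 23.3 and 28.3 in the M-Δx3,4 cultures, without overlap. Its log2 fold change was -1.20 with a standard error of 0.41 (adjusted p = 0.984 in edgeR's quasi-likelihood test) and its call was lost without M-Δx3,4 replicate 2 alone (-1.03). The value of Mertk was 0.56, and the difference between the 2 kinases was not tested. Rac1, the GTPase of the engulfing cytoskeleton, had the highest level in the list and a log2 fold change of 0.10 (-0.14 without M-Δx3,4 replicate 1). In the list of the fractalkine ligand and monocyte homing receptors, Adam10, a protease that sheds fractalkine, rose from 54.6, 36.8 and 26.7 to 79.2, 67.0 and 106.2 normalized counts (log2 fold change 1.096). Ly6c2, a surface antigen of inflammatory monocytes, had 13.9, 16.3 and 27.8 normalized counts in control and 11.7, 8.74 and 2.29 in M-Δx3,4 libraries (log2 fold change -1.36). The call of Adam10 was lost without control replicate 2 (1.05), control replicate 3 (0.90) or M-Δx3,4 replicate 3 (0.89). That of Ly6c2 was lost without control replicate 2 (-1.47), control replicate 3 (-1.01), M-Δx3,4 replicate 2 (-1.49) or M-Δx3,4 replicate 3 (-0.91).

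Of 7 lysozyme relatives and antibacterial genes tested 1 was called. Nod1, an intracellular sensor of peptidoglycan fragments, fell from 387, 251 and 441 to 176, 161 and 179 normalized counts, a log2 fold change of -1.06 with a standard error of 0.33 (adjusted p = 0.984 in edgeR's quasi-likelihood test). Its call was lost without control replicate 3 (-0.88). The other lysozyme family members listed, Lyzl1, Lyzl4, Lyzl6 and Lalba, had no read in any library. The highest gene of the list, the NADPH oxidase subunit Cyba, had a log2 fold change of -0.37 (-0.19 without control replicate 3). The galectins (0 of 4 called), the LAMP family and adhesion receptors (0 of 4), the myeloid transcription factors (0 of 15) and the other macrophage markers (0 of 25) held no called gene, with 0, 1, 1 and 1 at an unadjusted p under 0.05 in edgeR. Their highest genes, Lgals1, Lamp1, Spi1 and Laptm5, had log2 fold changes of -0.30, -0.07, -0.9995 and 0.09. With 1 library left out the sign turned for Lgals1 (-0.62 to 0.20), Lamp1 (-0.21 to 0.07) and Laptm5 (-0.19 to 0.37). Spi1, which encodes PU.1, had 896, 1940 and 4656 normalized counts in control and 1511, 1024 and 1211 in M-Δx3,4 libraries, and its value was -1.40 with control replicate 1 left out and -0.17 with control replicate 3 left out.

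**Figure D4:**
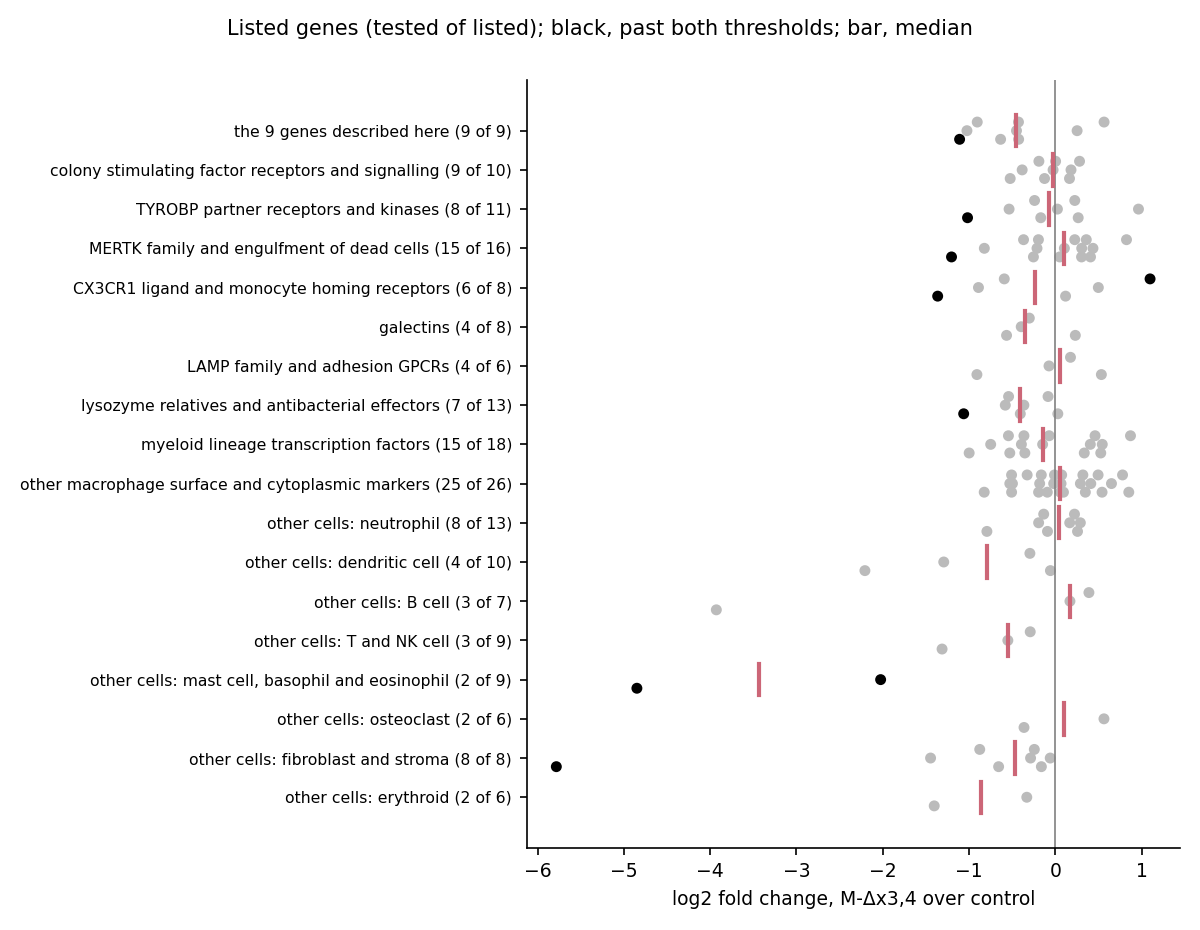
Log2 fold change of M-Δx3,4 over control (horizontal axis) of each tested gene in the lists (rows, with the number tested of the number listed), by its transcript with the highest count. Black points passed both thresholds (5 macrophage genes and 3 markers of other cells, beside Lyz1), the red bar is the median of the list, and the grey line is the median of all genes at -0.006.

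The 5 genes whose level followed that of Lyz2 most closely over the 6 libraries, by Pearson's r of log2(normalized count + 1) among 4722 genes with a mean of at least 50 normalized counts, were Adgre5 (0.986), Axl (0.983), Sri (0.982), Ergic3 (0.977) and Ppp1r18 (0.961). In all 5 the M-Δx3,4 libraries lay under the control libraries. Adgre5, the adhesion receptor CD97 and a relative of F4/80, had 239, 228 and 260 normalized counts in control and 180, 93.2 and 114 in M-Δx3,4 libraries, with a log2 fold change of -0.91. These 6 points share the group difference, and the ranking is a description. Lyz1 came at place 22 (r = 0.915), Tyrobp at 97 (0.830) and Adgre1 at 1890 (0.110), while Mertk ran the other way (-0.825). An r above 0.9 was found for 33 of the 4722 genes (0.699%).

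Of 68 markers of other cells 32 were tested and 3 were called (Siglecf, Prg2 and Col3a1), all lower. Of the 11873 genes tested 3.07% were called, and 1.96% were called lower in M-Δx3,4. Prg2 and Col3a1 had reads in control libraries only and passed the filter on low counts through them, so no other direction was open to them. Of the 32, 25 had a log2 fold change under 0, beside 5996 of the 11873 genes. Without control replicate 3 it was 12 of the 26 markers then tested, beside 5481 of 11166 genes. Of the neutrophil markers, Ly6g, Mpo, Elane, Prtn3 and Retnlg had 0 or 1 read in every library. The others, S100a8, S100a9, Camp, Ltf, Ngp, Cxcr2, Mmp8 and Mmp9, were read in all. S100a9 had 80.7 to 368 normalized counts in control and 228 to 240 in M-Δx3,4. Neutrophils also express Lyz2. The summed level of the 13 neutrophil markers was 485 to 886 in control and 571 to 859 in M-Δx3,4 libraries, overlapping. How often the summed level of a list drawn from all genes fails to overlap between the groups was not computed. Among the macrophage lists, the summed level of the lysozyme relatives and antibacterial genes did not overlap (3859 to 4506 in control, 3402 to 3481 in M-Δx3,4). Those of the other macrophage lists did overlap. Summed levels of the mast cell, basophil and eosinophil list (8.12 to 38.4 against 1.53 to 5.87) and of the T and NK cell list (47 to 63.9 against 27.4 to 43.7) also did not overlap and were lower in M-Δx3,4. In the first, Cpa3, Mcpt8, Fcer1a, Ms4a2 and Epx had no read, Siglecf, an eosinophil and macrophage lectin, had 31.4, 10.2 and 1.16 normalized counts in control and 5.87, 3.88 and 0.76 in M-Δx3,4 libraries, and Prg2 had 4, 0 and 5 reads in control and none in M-Δx3,4 libraries. Prg2 passed the filter on low counts in none of the 6 fits that left out 1 library. The call of Siglecf went without control replicate 1 (-0.73), control replicate 2 (-2.22), M-Δx3,4 replicate 2 (-2.13) or M-Δx3,4 replicate 3 (-1.52). In the second, Cd3e, Cd3g, Nkg7, Klrb1c and Ncr1 had no read, while Cd4, which macrophages can carry too, was the highest. Cd3d, a chain of the T cell receptor complex, was read in every library, with 32, 22 and 5 reads in control and 11, 25 and 24 in M-Δx3,4 libraries, and Lck, a kinase of T cells, had 7, 1 and 4 against 2, 1 and 3 reads. Col3a1, a collagen of stromal cells, had 12, 6 and 0 reads in control and none in M-Δx3,4 libraries, its call lost without control replicate 1, within a summed stromal level of 48.0 to 65.1 in control and 13.6 to 74.3 in M-Δx3,4. The summed levels of the dendritic cell (12.8 to 44.1 and 10.8 to 21.4), B cell (29.1 to 35.8 and 22.9 to 39.8), osteoclast (416 to 565 and 436 to 498) and erythroid lists (0 to 37.1 and 0.97 to 13.8) overlapped between control and M-Δx3,4. Their highest genes were Itgax, Cd79b, Acp5 and Hbb-bs. The part of these cells in the results was not tested, and in RNA of whole cultures fewer cells of a type and less RNA per cell cannot be told apart.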

How the data were processed

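RNA of 3 control and 3 M-Δx3,4 BMDM cultures was sequenced from the 3′ ends (QuantSeq). The authors aligned the reads to mm10 with TopHat2 2.1.1 and Bowtie2 and deposited counts of reads per 3′ UTR region, unnormalized, and TPM values of their own, used here for the order of levels only. 18 other per-sample columns and the columns of the authors' own comparison were not used. Where a transcript has several regions their counts were added up. A transcript was tested if 1 library or more exceeded 4.89 normalized counts, the median over the table (32475 did), with edgeR 4.0.16 (quasi-likelihood test, median-of-ratios factors, Benjamini-Hochberg adjustment). Each gene was read from the transcript with the most reads on average, and was called at an unadjusted p under 0.05 and a log2 fold change of at least 1 in size. Single measures were tested by exact permutation (scipy 1.17.1). limma-voom (limma 3.58.1), DESeq2 1.42.0, other factors and filters, a replicate block and leaving out each library were alternatives. The fit was tried on simulated counts with the same spread for every transcript and no outlying library. These settings differ from the data, so that trial does not give the error rates here. The 9 genes and the lists were chosen with earlier results of these data known. Genes named from a list are mainly those called and the one with the highest mean. Others, such as Cd3d, Lck and genes without a read, were named with their values known. Transcripts of 1 gene share reads. Sequences came from GENCODE vM21 and RefSeq.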

Additional observations from a re-analysis of the deposited data

How the results depend on the processing

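Lyz2 kept its direction in all 15 alternatives, with log2 fold changes from -1.11 (without M-Δx3,4 replicate 1, where it passed both thresholds) to -0.79 (without M-Δx3,4 replicate 2). The fits that left out 1 library gave 0 to 2 called genes of the 9. Without a fold change minimum there were 2, beside 472 of the 11873 genes tested. Adgre1 turned sign in 1 alternative, to -0.065 without M-Δx3,4 replicate 1, and ran to 0.48 without M-Δx3,4 replicate 2. The other 7 genes kept their sign. The summed level of the 9 genes stayed within -0.56 to -0.23 on the log2 scale. The Lyz2 share of the pair differed by -0.07 to 2.63 percentage points with 1 library left out.

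Of the 93 other macrophage genes 5 were called. The number was 3 with library totals only and 2 at a p threshold of 0.01. Without a fold change minimum it was 8, beside 472 of the 11873 genes tested. With 1 library left out it was 2 to 17, the highest without control replicate 1. How many of all genes were called in those fits, or with the other settings, is not given here. The 17 are therefore not a result about these genes. Of the markers of other cells 3 were called, 1 in DESeq2 and with 1 transcript per gene, 0 in limma-voom, under filterByExpr and with at least 10 counts in every library, and 1 to 3 with 1 library left out. The cause of these changes was not tested beyond the number of libraries and genes kept.

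With the replicate number as a block, 1 of the 9 genes was called as before (Lyz2 -0.93, Lyz1 -1.08), and 3 other macrophage genes and 1 marker. The labels do not pair the cultures, and same-numbered libraries deviated from their group means with r = -0.21, 0.54 and -0.31 over 4723 genes. Control replicate 1 had r = -0.33 and 0.54 with replicates 2 and 3 of the other group. For control replicate 2 it was -0.14 and -0.40 with replicates 1 and 3 of that group. For control replicate 3 it was 0.28 and 0.03 with replicates 1 and 2 of that group. The block is a shared number only, and a pairing in another order was not tested.

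Intervals and fold changes rest on 3 libraries a group. The depth leaves Cx3cr1 at 1 to 8 reads.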
